A study of Mus musculus with 6 samples.

Results

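Small nucleolar RNAs and small Cajal body RNAs made up 119 of the 24421 gene rows measured in mouse heart lysates. The rows were chosen by symbol, with 74 C/D box rows (symbols that begin with Snord and a number), 36 H/ACA rows (Snora) and 9 Cajal body rows (Scarna). RNA was sequenced from 3 groups with 2 libraries each, all from 4-week-old C57BL6/J mouse hearts with no genetic change or treatment given in the labels. Cnot3 RIP held the RNA that came down with an antibody to Cnot3, control IgG RIP the RNA that came down with a control antibody, and Input the RNA of the heart lysate itself. RIP is RNA immunoprecipitation, and Cnot3 belongs to CCR4-NOT, a protein complex that removes poly(A) tails from mRNA. The control antibody group is called control RIP below. The study asked which RNAs associate with Cnot3. The labels count 2 experiments per group and do not say which animals were used or whether hearts were pooled, so a p-value here reflects how far these libraries spread.

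Small nucleolar RNAs, or snoRNAs, guide the chemical modification of other RNAs in the nucleus. C/D box snoRNAs carry a C box near the 5′ end and a D box near the 3′ end, bind fibrillarin, and guide ribose methylation, mostly of ribosomal RNA. H/ACA snoRNAs end in an ACA box, bind dyskerin, and guide the change of uridine to pseudouridine. Small Cajal body RNAs, or scaRNAs, have the boxes of either class or of both and guide the same changes in spliceosomal RNAs. In mammals most are cut out of introns of host genes after splicing, have no poly(A) tail, and are much shorter than an mRNA. Exonucleases trim them, and the noncanonical poly(A) polymerase Papd5 and the nuclease Parn act on their 3′ ends during maturation.

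The sequences below belong to the rows on which the results turn, and they are shown so that the boxes and the difference between a gene pair can be seen. They come from the GENCODE annotation of the GRCm38 (mm10) genome and run 5′ to 3′ along the RNA. Capitals mark TGATGA, core letters of the C box, where it lies in the first 20 bases, CTGA, the D box, where it lies in the last 15 bases, and ACA in the last 10 bases of an H/ACA RNA. Snord17 (chr2:144265979-144266216, minus strand) and Snord22 (chr19:8725866-8725991, plus strand) were the C/D box rows with the highest mean over all 6 libraries. Snord15b (chr7:99479563-99479707) and Snord15a (chr7:99482785-99482932) lie on the minus strand in the same host gene, Rps3. Snord118 (chr11:69073427-69073561, plus strand) had no read in Input. Snora23 (chr7:110046364-110046547, plus strand) and Snora70 (chrX:74272484-74272620, plus strand) are the H/ACA rows described at opposite ends of the range against Input. Scarna10 (chr6:125186359-125186683, minus strand) is 325 bases long, and its first 120 are given.
Snord17: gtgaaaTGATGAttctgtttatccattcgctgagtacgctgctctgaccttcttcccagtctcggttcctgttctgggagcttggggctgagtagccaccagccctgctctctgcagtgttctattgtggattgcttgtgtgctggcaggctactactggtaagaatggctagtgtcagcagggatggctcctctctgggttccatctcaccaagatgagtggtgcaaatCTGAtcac
Snord22: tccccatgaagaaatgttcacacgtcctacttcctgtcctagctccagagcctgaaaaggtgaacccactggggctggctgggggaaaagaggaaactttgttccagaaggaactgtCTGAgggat
Snord15b: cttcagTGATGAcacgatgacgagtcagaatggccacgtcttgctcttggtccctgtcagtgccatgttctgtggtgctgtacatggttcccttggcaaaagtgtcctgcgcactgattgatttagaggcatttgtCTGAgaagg
Snord15a: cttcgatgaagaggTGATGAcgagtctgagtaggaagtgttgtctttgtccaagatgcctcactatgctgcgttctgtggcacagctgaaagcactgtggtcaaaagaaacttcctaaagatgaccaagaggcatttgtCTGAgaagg
Snord118: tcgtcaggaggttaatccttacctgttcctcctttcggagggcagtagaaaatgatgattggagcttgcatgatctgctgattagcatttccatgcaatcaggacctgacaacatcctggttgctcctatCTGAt
Snora23: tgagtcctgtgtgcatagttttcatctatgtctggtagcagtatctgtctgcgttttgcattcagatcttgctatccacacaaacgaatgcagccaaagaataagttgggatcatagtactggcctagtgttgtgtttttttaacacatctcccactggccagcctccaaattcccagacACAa
Snora70: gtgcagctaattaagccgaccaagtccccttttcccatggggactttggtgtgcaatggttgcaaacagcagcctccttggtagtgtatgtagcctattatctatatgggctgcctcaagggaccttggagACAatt
Scarna10, bases 1 to 120: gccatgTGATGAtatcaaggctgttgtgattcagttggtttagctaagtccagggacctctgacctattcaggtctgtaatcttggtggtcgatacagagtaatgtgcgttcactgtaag

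The box letters followed the symbols. TGATGA stood in the first 20 bases of 46 of the 73 annotated C/D box sequences (63.0%), of 0 of 36 H/ACA sequences and of 4 of 9 scaRNA sequences, against 0.475% of the 132349 other annotated transcripts. CTGA stood in the last 15 bases of 66 C/D box sequences (90.4%), 2 H/ACA sequences (5.56%) and 5 scaRNA sequences, against 6.98% of the other transcripts. ACA stood in the last 10 bases of 34 H/ACA sequences (94.4%), 7 C/D box sequences (9.59%) and 4 scaRNA sequences, against 13.9% of the other transcripts. Each motif was searched on the RNA strand only. Snord22 and Snord118 have the D box letters but not TGATGA in the first window, while Scarna10 has both. Snord15a and Snord15b shared 98 aligned bases, 67.6% of the shorter one.

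Few of these rows held enough reads to compare. The deposited values are counts per a fixed total of reads (CPM) and whole reads could be recovered from them, 1494 to 2269 reads per library over all 119 rows. Of the 119 rows, 24 (20.2%) had at least 0.5 CPM in 2 columns of the table, against 53.8% of all rows. These were 8 of 74 C/D box rows, 11 of 36 H/ACA rows and 5 of 9 scaRNA rows. The test described below took 23 of them, leaving out Snora43, and those 23 rows held 90.8% of the 10810 member reads. No read was found in any library for 17 rows, 13 of them C/D box and 4 H/ACA, and 90 rows stayed under 10 reads in every library. With no read seen, up to 3 reads remain possible, or 0.0896 to 0.191 deposited CPM depending on the library, so rows at 0 were not detectable at this depth.

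Detection moved with length. Of 64 rows annotated under 100 bases, 4 had at least 0.5 CPM in 2 columns, and of 15 rows of 100 to 129 bases, 4 had it. The count was 8 of 31 rows at 130 to 149 bases and 8 of 8 rows at 150 bases or more. The median length was 137 bases for the 23 tested rows and 87 bases for the others with a length. Scarna2, at 414 bases, and Scarna10 were the longest. How the libraries were made and size-selected is not given in the sources used here, and the part that length had in the detection of a row was not tested.

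**Figure D1:**
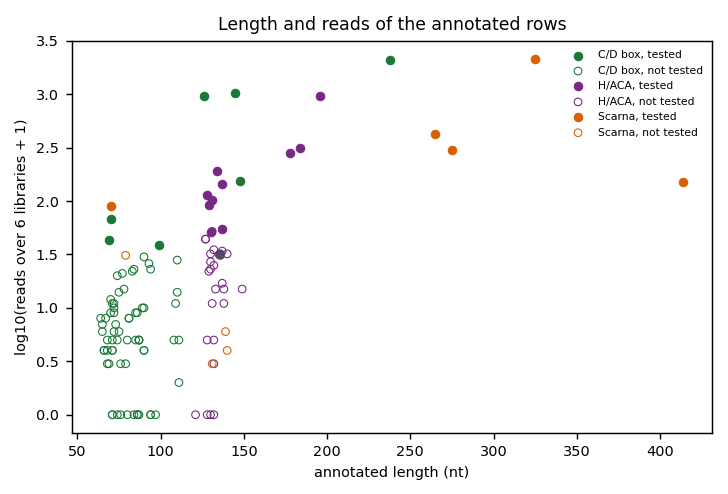
Annotated length in bases (x axis) against log10 of the reads summed over the 6 libraries plus 1 (y axis) for the 118 rows with an annotated length, coloured by class. Filled points were tested and open points were not, and the 8 rows of 150 bases or more are all filled.

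Total reads per library, recovered from the CPM, were 19176056 and 25567544 in Cnot3 RIP, 18032715 and 17283203 in control RIP, and 15713318 and 33479580 in Input. The ribosomal RNA precursor Rn45s took 51.1% to 53.1% of them in Cnot3 RIP, 59.4% to 60.2% in control RIP and 78.3% to 79.2% in Input. For that reason levels are given below as scaled CPM, which is CPM divided by a library factor (TMM) computed over the 13010 genes with enough reads. All 10 cardiomyocyte markers checked had reads in every library. Their summed levels were 68483 to 81699 scaled CPM in the Cnot3 RIP libraries, 70270 to 133288 in control RIP and 44291 to 49751 in Input. Of 5 erythroid markers, 4 hemoglobin genes were listed at 0 throughout, while Alas2 had reads. Alas2 had 6.09 to 13.7 scaled CPM in Cnot3 RIP, 11.9 to 13.6 in control RIP and 6.23 to 12.8 in Input. Whole hearts were used, so fewer cells of a type and less RNA per cell cannot be told apart.

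Summed over all 119 rows, the level in Cnot3 RIP was below that in control RIP. The sum was 60.9 and 48.4 scaled CPM in the Cnot3 RIP libraries, 131 and 96.9 in the control RIP libraries, and 138 and 76.3 in the Input libraries. Neither Cnot3 RIP library reached the lowest library of the other groups. A few rows weighed most in the sum, as the 3 rows with the most reads held 48.5% to 60.9% of the member reads of a library. The mean sum in Cnot3 RIP was 0.480 times that in control RIP and 0.511 times that in Input, and the mean in control RIP was 1.06 times that in Input, with overlap. As deposited, without the scaling, the ratio of Cnot3 RIP to control RIP was 0.611 and the libraries still did not overlap. The ratio to Input depended on the scaling, at 1.07 with overlap for Cnot3 RIP and 1.75 without overlap for control RIP when deposited CPM were used. With 2 libraries against 2 an exact permutation test cannot pass, so these sums carry no test.

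The C/D box rows together had 28.7 and 19.5 scaled CPM in the Cnot3 RIP libraries, 60.7 and 47.0 in control RIP, and 59.8 and 32.3 in Input. The H/ACA rows had 16.8 and 12.1 in Cnot3 RIP, 35.5 and 27.4 in control RIP, and 37.7 and 14.3 in Input. The scaRNA rows had 15.4 and 16.9 in Cnot3 RIP, 34.7 and 22.5 in control RIP, and 40.5 and 29.7 in Input. In each class both Cnot3 RIP libraries were below both control RIP libraries, at 0.447 times the control mean for C/D box, 0.459 for H/ACA and 0.565 for scaRNA rows. Few rows carried these sums and the class ratios below. The 3 rows with the most reads held 81.3% to 89.2% of the C/D box reads of a library, 47.6% to 66.2% of the H/ACA reads and 86.8% to 92.8% of the scaRNA reads. Snord17 alone held 39.0% to 48.6% of the C/D box reads, and Scarna10 57.7% to 73.6% of the scaRNA reads. Against Input the Cnot3 RIP ratios were 0.524, 0.556 and 0.460 in the same order of classes, and the H/ACA libraries overlapped. Within a library the ratio of H/ACA reads to C/D box reads, which no scaling changes, was 0.588 and 0.618 in Cnot3 RIP, 0.586 and 0.583 in control RIP, and 0.631 and 0.443 in Input. That ratio overlapped between the groups and was lowest in Input replicate 2. The ratio of scaRNA reads to C/D box reads was 0.538 and 0.865 in Cnot3 RIP, 0.571 and 0.479 in control RIP, and 0.679 and 0.922 in Input, where control RIP lay below Input and Cnot3 RIP overlapped both. The ratio of scaRNA reads to H/ACA reads was 0.915 and 1.40 in Cnot3 RIP, 0.976 and 0.821 in control RIP, and 1.08 and 2.08 in Input, with the same order. The 96 rows too low to test had 6.16 and 4.62 scaled CPM in the Cnot3 RIP libraries, 13.3 and 10.5 in control RIP, and 8.77 and 5.55 in Input. Here control RIP lay above both other groups, and Cnot3 RIP overlapped Input.

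**Figure D2:**
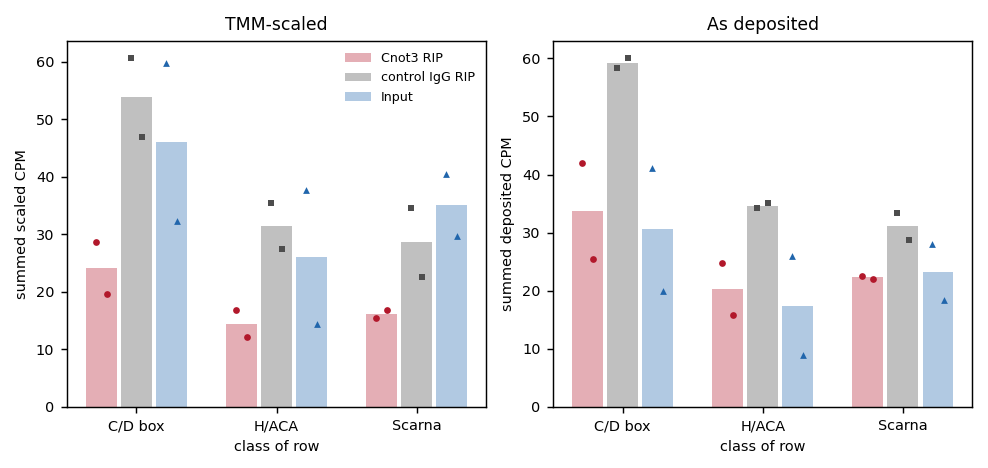
Summed level of the C/D box, H/ACA and scaRNA rows, as scaled CPM on the left and as deposited CPM on the right, with 1 point per library and a bar at the mean of 2 libraries. In each class both Cnot3 RIP points lie below both control RIP points on either scale, while the place of Input changes with the scale.

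Each row was tested in a limma fit over all 13010 genes with enough reads, and a row was called where its p, adjusted by the Benjamini-Hochberg method, was under 0.05. Fold changes are on the log2(scaled CPM + 0.25) scale, which understates the change of low rows, and levels are given as mean ± SD (n = 2 libraries). The 3 comparisons share groups, since each group enters a pair of them.

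In Cnot3 RIP against control RIP no row passed the test, although nearly every tested row had the same sign under each scaling. The test called 0 of the 23 rows higher and 0 lower, where 1.54% of all genes were called higher and 0.277% lower. All 23 log2 fold changes were below 0 (21 with deposited CPM and 21 or 22 without Cnot3 RIP replicate 2 or either control RIP replicate), where 50.3% of all genes were below 0, and the median was −0.96, against −0.00 for all genes. Both Cnot3 RIP libraries were below both control RIP libraries for 18 of the 23 rows, against 21.8% of all genes, and above for 0 rows, against 24.0%. Of the 23 rows, Snora21, Snord118 and Snord16a were tested only because control RIP was high enough, so they had to be higher there and the counts lean that way. Among the 10 rows with the highest mean over all libraries, which that does not affect, the median was −1.02 and 9 did not overlap. Without those 3 rows the median of the other 20 was −0.89 and 15 did not overlap. The smallest adjusted p was 0.131 (limma), and 11 rows (47.8%) had an unadjusted p under 0.05, against 17.3% of all genes. With edgeR's quasi-likelihood test 0 rows were called. DESeq2 called 2 rows lower, Scarna10 and Snord17, where it called 1.25% of all genes lower.

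By class, the medians against control RIP were −0.97 for the 8 C/D box rows, −1.19 for the 10 H/ACA rows and −0.37 for the 5 scaRNA rows. Without the rows tested only because control RIP was high enough, they were −0.79 for 6 C/D box rows and −1.17 for 9 H/ACA rows. The difference between the classes was not tested. Snord17, which in human cells guides methylation of large-subunit ribosomal RNA, had 13.9 and 7.97 scaled CPM in the Cnot3 RIP libraries, 23.6 and 22.2 in control RIP, and 24.0 and 13.5 in Input. The Cnot3 RIP libraries were below the control RIP libraries and overlapped Input only in that Input replicate 2 fell below Cnot3 RIP replicate 1. Its mean was 11 ± 4.21 in Cnot3 RIP and 22.9 ± 1.06 in control RIP, a log2 fold change of −1.10 ± 0.34 (SE; adjusted p = 0.132, limma). Per kilobase of annotated length its mean level was 46.0 scaled CPM per kb in Cnot3 RIP, 96.2 in control RIP and 78.7 in Input, the highest of the tested rows in the immunoprecipitations. Snord15b was next there, with 38.5 scaled CPM per kb in Cnot3 RIP and 95.8 in control RIP, and had 40.0 in Input. In Input Snord22 was highest per kb, with 29.1 in Cnot3 RIP, 57.9 in control RIP and 126.5 in Input.

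Snord15a and Snord15b both lie within the ribosomal protein gene Rps3, Snord15a in an intron and Snord15b over an annotated exon, so Snord15b reads may be mixed with Rps3 reads. They differed in level and in their ratio between groups. Snord15b had 6.73 and 4.44 scaled CPM in the Cnot3 RIP libraries, 16.1 and 11.7 in control RIP, and 9.42 and 2.17 in Input. Snord15a had 0.926 and 0.689 in Cnot3 RIP, 2.13 and 0.997 in control RIP, and 2.12 and 1.01 in Input. Both had all Cnot3 RIP libraries below the control RIP libraries, with log2 fold changes of −1.29 for Snord15b and −0.71 for Snord15a, and neither passed the test (adjusted p = 0.263 and 0.466, limma). The reads of Snord15b were 7.27 and 6.43 times those of Snord15a in Cnot3 RIP, 7.54 and 11.7 times in control RIP, and 4.43 and 2.14 times in Input. That ratio, which no scaling changes, was lower in both Input libraries than in any immunoprecipitated library. Snord16a, which overlaps an annotated exon of Rpl4, had 3 and 6 reads in the Cnot3 RIP libraries, 13 and 11 in control RIP, and 2 and 3 in Input. Snord104 had 15 and 3 reads in the Cnot3 RIP libraries, 8 and 18 in control RIP, and 10 and 13 in Input, and its groups overlapped.

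Of the H/ACA rows, 9 of 10 had both Cnot3 RIP libraries below both control RIP libraries, against 21.8% of all genes. Without Snora21, tested only because control RIP was high enough, it was 8 of 9 rows. Snora74a, the most abundant, had 6.55 and 4.38 scaled CPM in the Cnot3 RIP libraries, 10.3 and 8.92 in control RIP, and 13.9 and 5.07 in Input. Snora64, which overlaps an annotated exon of the ribosomal protein gene Rps2, had 0.855 and 1.02 in Cnot3 RIP, 3.11 and 1.99 in control RIP, and 2.03 and 0.628 in Input. Snora81, which overlaps an annotated exon of the translation factor gene Eif4a2, had 2.03 and 0.689 in Cnot3 RIP, 3.4 and 2.72 in control RIP, and 3.69 and 1.93 in Input. These rows share the order of the RIP groups, but Input spans it, since in each of these rows Input replicate 2 was below both control RIP libraries and within or below the range of Cnot3 RIP. Snora78 had 0.392 and 0.719 in Cnot3 RIP, 1.79 and 0.906 in control RIP, and 1.39 and 0.531 in Input, with log2 fold changes of −0.81 to −1.21 for these 4 rows against control RIP. Snora78 lies opposite Rps2 on the other strand, and the strand setting of the counting is not given, so their reads may not be told apart. Snora21 had 5 and 5 reads in the Cnot3 RIP libraries, 20 and 13 in control RIP, and 5 and 6 in Input. The other tested H/ACA rows, Snora15, Snora44 and Snora31, and the C/D box row Snord2 had log2 fold changes of −1.5, −1.21, −0.37 and −0.58 against control RIP.

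The 5 scaRNA rows ran between −0.94 and −0.05 against control RIP. Scarna10, known in human cells as U85, carries C/D and H/ACA boxes and guides changes in the U5 spliceosomal RNA. It had 8.90 and 11.4 scaled CPM in the Cnot3 RIP libraries, 24.0 and 15.9 in control RIP, and 29.8 and 21.0 in Input. Both Cnot3 RIP libraries were lowest, with a log2 fold change against control RIP of −0.94 ± 0.29 (SE; adjusted p = 0.131, limma). Scarna6, from an intron of Atg16l1, had 1.96 and 2.70 in Cnot3 RIP, 5.13 and 2.90 in control RIP, and 4.89 and 3.33 in Input, in the same order at a lower level. Scarna13, which in human cells guides pseudouridine formation in spliceosomal RNAs, had 2.53 and 1.38 in Cnot3 RIP, 3.0 and 1.72 in control RIP, and 2.77 and 2.95 in Input. Scarna2, which lies in no annotated host gene, had 1.14 and 0.749 in Cnot3 RIP, 1.38 and 1.18 in control RIP, and 1.02 and 1.5 in Input. Scarna9 had 0.677 and 0.420 in Cnot3 RIP, 0.461 and 0.680 in control RIP, and 1.66 and 0.676 in Input. The log2 fold changes of Scarna13, Scarna2 and Scarna9 against control RIP were −0.25, −0.37 and −0.05, and Scarna13 and Scarna9 overlapped.

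**Figure D3:**
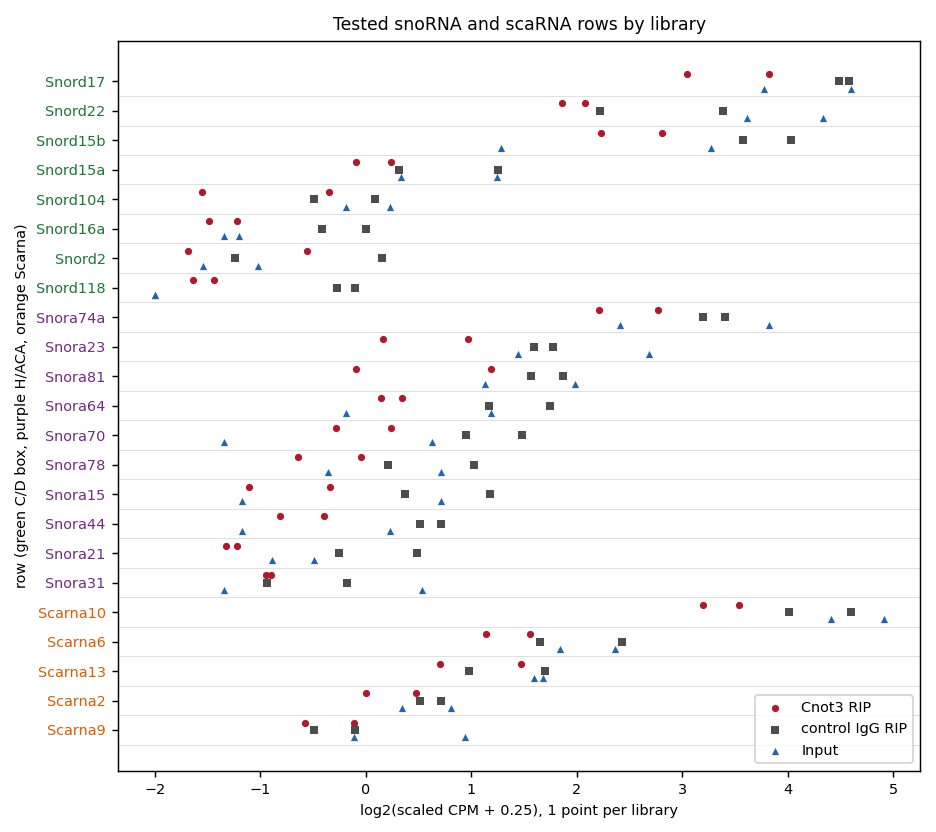
Level of each of the 23 tested rows in each library, as log2 of scaled CPM plus 0.25 (x axis), with rows grouped by class and ordered by mean level. In 18 rows both Cnot3 RIP points lie left of both control RIP points, and the 2 Input points of Snord118 coincide at 0 reads.

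Against Input, 2 snoRNA and scaRNA rows fell in Cnot3 RIP, Snord22 and Scarna10. The test called 0 of the 23 rows higher and 2 lower, where 5.86% of all genes were called higher and 2.47% lower. Of the 23 log2 fold changes 19 were below 0, and the median was −0.55, against 0.06 for all genes. With deposited CPM 6 of 23 were below 0 and the median was 0.25, against 1.02 for all genes, so the sign of the median turned with the scaling while it stayed below the median of all genes. Both Cnot3 RIP libraries were below both Input libraries for 8 rows, against 26.9% of all genes, and above for 1 row, Snord118, against 30.6%.

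Snord22, known as U22, is needed for the processing of small-subunit ribosomal RNA in frog oocytes. It had 3.38 and 3.96 scaled CPM in the Cnot3 RIP libraries, 10.2 and 4.39 in control RIP, and 19.9 and 12 in Input. The groups did not overlap and stood in that order. The mean was 3.67 ± 0.405 in Cnot3 RIP and 15.9 ± 5.54 in Input, with a log2 fold change of −2.01 ± 0.39 (SE; adjusted p = 0.0210, limma). In control RIP it was −1.17 ± 0.39 against Input, which did not pass (adjusted p = 0.110, limma). Snord22 overlaps an annotated exon of its host Snhg1, a noncoding transcript known for the snoRNAs in its introns, so reads of the host may be counted with it. The host itself was near the lower limit of the test, with 1.10 and 0.839 scaled CPM in the Cnot3 RIP libraries, 0.865 and 1.36 in control RIP, and 0.646 and 1.21 in Input, and its log2 fold change against Input was 0.09.

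Scarna10 had a mean of 10.1 ± 1.74 scaled CPM in Cnot3 RIP and 25.4 ± 6.24 in Input, a log2 fold change of −1.29 ± 0.29 (SE; adjusted p = 0.0298, limma). It overlaps an annotated exon of its host Ncapd2. Ncapd2, a condensin subunit gene, had a log2 fold change of 0.71 against Input and was not called. Scarna10 reads were 70.8% and 57.5% of the Ncapd2 reads in the Cnot3 RIP libraries, 162% and 133% in control RIP, and 260% and 264% in Input. This percentage needs no scaling, and the 3 groups did not overlap. With 1 library left out at a time the log2 fold change ran between −2.42 and −1.70 for Snord22 and between −1.60 and −1.09 for Scarna10. Calls were lost over all genes in these smaller fits, with 2 to 20 genes called lower without Cnot3 RIP replicate 2 or an Input replicate, against 321 with all libraries. Without Cnot3 RIP replicate 2, Input replicate 1 or Input replicate 2 the adjusted p (limma) was 0.0733, 0.119 and 0.120 for Snord22 and 0.0715, 0.154 and 0.129 for Scarna10, and without Cnot3 RIP replicate 1 it was 0.0504 for Scarna10. With deposited CPM the log2 fold change of Scarna10 was −0.23 and did not pass (adjusted p = 0.481, limma), while Snord22 still passed.

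Snora23, an H/ACA RNA from an intron of Ipo7 that in human cells guides pseudouridine formation in ribosomal RNA, had the next smallest p. It had 1.71 and 0.869 scaled CPM in the Cnot3 RIP libraries, 3.17 and 2.76 in control RIP, and 6.19 and 2.46 in Input. Cnot3 RIP was below every library of the other groups, and the log2 fold change against Input of −1.5 ± 0.43 did not pass (SE; adjusted p = 0.0632, limma). Snora70, which overlaps an annotated exon of the ribosomal protein gene Rpl10, had 0.926 and 0.570 in Cnot3 RIP, 2.54 and 1.68 in control RIP, and 1.29 and 0.145 in Input, with a log2 fold change of 0.33 against Input and overlapping libraries. Without Snord118, which had no read in either Input library, the other 22 rows ran between −2.01 and 0.33 with a median of −0.56. By class the medians against Input were −0.40 for C/D box rows (−0.72 without Snord118), −0.52 for H/ACA rows and −0.75 for scaRNA rows, and the H/ACA median was 0.22 without Input replicate 1.

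**Figure D4:**
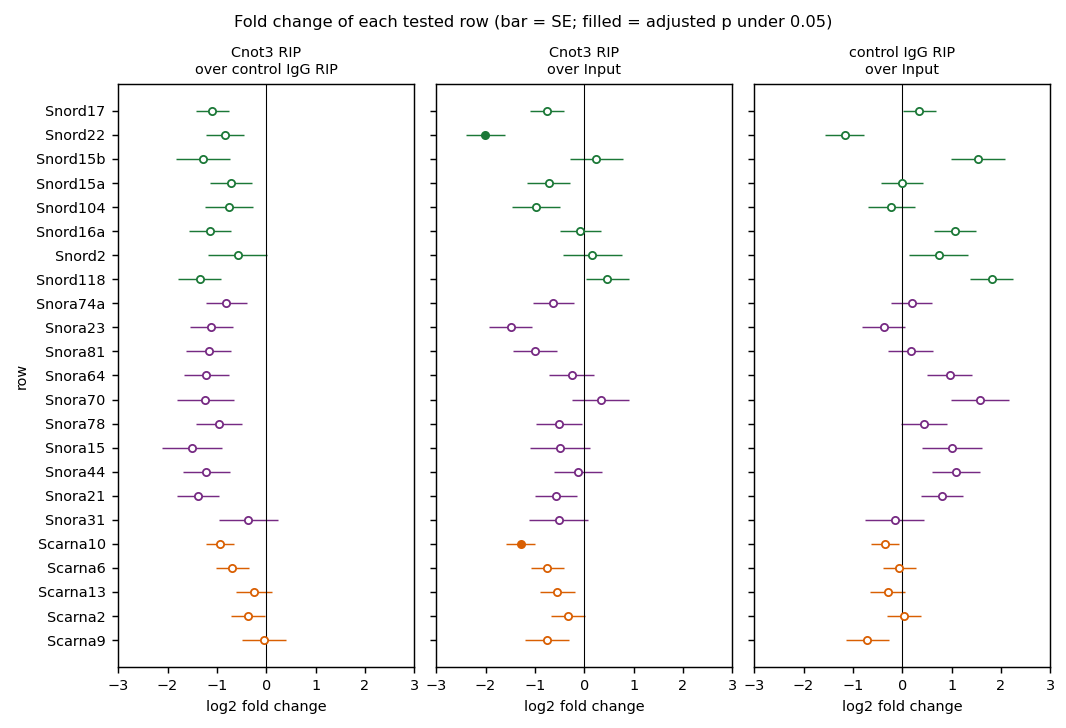
Log2 fold change of each tested row (x axis, bar = SE) in the 3 comparisons, coloured by class, with filled points where the adjusted p was under 0.05. All 23 points lie below 0 for Cnot3 RIP over control RIP, 21 of 23 where deposited CPM are used instead, and the 2 filled points are Snord22 and Scarna10 for Cnot3 RIP over Input. Snord118 had no read in Input, so its points in those comparisons depend on the pseudocount.

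In control RIP against Input no row passed the test, and the rows lay on both sides of 0. The test called 0 of the 23 rows higher and 0 lower, where 2.58% of all genes were called higher and 1.49% lower. With an unadjusted p under 0.05 there were 5 rows (21.7%), against 24.9% of all genes, and edgeR's quasi-likelihood test and DESeq2 called 0 in either direction. The median was 0.19, against 0.01 for all genes, with 14 rows above 0 and 9 below. Both control RIP libraries were above both Input libraries for 6 rows, against 29.7% of all genes, and below for 1 row, Snord22, against 29.3%. Of those 6 rows, 3 were Snora21, Snord118 and Snord16a, tested only because control RIP was high enough. Without them the median of the other 20 rows was 0.10, with 11 above 0 and 9 below. By class the medians were 0.54 for C/D box rows (0.17 without those that passed only through control RIP), 0.62 for H/ACA rows (0.44) and −0.30 for scaRNA rows, and the difference was not tested. With 1 library left out at a time the C/D box median ran between 0.22 and 0.62 and the H/ACA median between −0.02 and 1.01. With deposited CPM, where the median of all genes was 0.70, 6 rows were called higher, while 33.7% of all genes were.

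Snord118, known as U8, is needed for the maturation of large-subunit ribosomal RNA in frog oocytes and is made from a gene of its own. It had 2 and 4 reads in the Cnot3 RIP libraries, 10 and 15 in control RIP, and 0 and 0 in Input. Only control RIP was above the limit of 3 reads in both of its libraries. Taking that limit for each Input library, the mean of control RIP, 0.628 scaled CPM, was at least 2.98-fold higher than Input at 0.211, and the adjusted p was 0.0541 (limma). Snord118 was tested only because control RIP was high enough, so this fold and p lean that way. Snord15b was higher in both control RIP libraries than in either Input library, with a log2 fold change of 1.53 ± 0.54 that did not pass (SE; adjusted p = 0.125, limma).

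Most tested rows lie in genes that were tested themselves, and rows and hosts did not move alike. Of 17 rows with a tested host (15 hosts), 15 were below their host in Cnot3 RIP against control RIP, with a median log2 fold change of −1.12 for the rows and −0.04 for the hosts. Against Input the rows had a median of −0.58 in Cnot3 RIP and the hosts −0.24, but 7 of 17 rows were below their own host and the median of row minus host was 0.28. In control RIP against Input the medians were 0.34 for the rows and −0.12 for the hosts, with 5 of 17 rows below their host. Of the 17 rows, Snora21 and Snord16a were tested only because control RIP was high enough, so both comparisons that involve control RIP lean that way. In Cnot3 RIP against control RIP their log2 fold changes were −1.39 and −1.14, and those of their hosts Rpl23 and Rpl4 were 0.10 and 0.55. The ribosomal protein hosts Rps3, Rps2, Rpl4 and Rpl23 fell in both immunoprecipitations against Input. Rpl10, also a ribosomal protein host, did not, with log2 fold changes of 0.05 in Cnot3 RIP and 1.32 in control RIP. Of the 15 tested hosts, limma called 4 lower in Cnot3 RIP and 4 in control RIP, where 2.47% and 1.49% of all genes were. Rps3 had 24.1 and 25.1 scaled CPM in the Cnot3 RIP libraries, 17.4 and 21.2 in control RIP, and 47.7 and 51.4 in Input, with log2 fold changes against Input of −1.0 (adjusted p = 0.0275) in Cnot3 RIP and −1.36 (adjusted p = 0.0173) in control RIP (limma). Snord15b, which overlaps an annotated Rps3 exon, had 0.24 and 1.53 in those comparisons. As a share of Rps3 reads, Snord15b made up 27.9% and 17.7% in Cnot3 RIP, 92.7% and 55.2% in control RIP, and 19.8% and 4.23% in Input, so control RIP stood above both other groups. Across all 119 rows, 53 overlap an annotated exon of the host, 59 lie within an intron and 6 have no host on their strand, and reads of host and row cannot be told apart where they overlap.

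**Figure D5:**
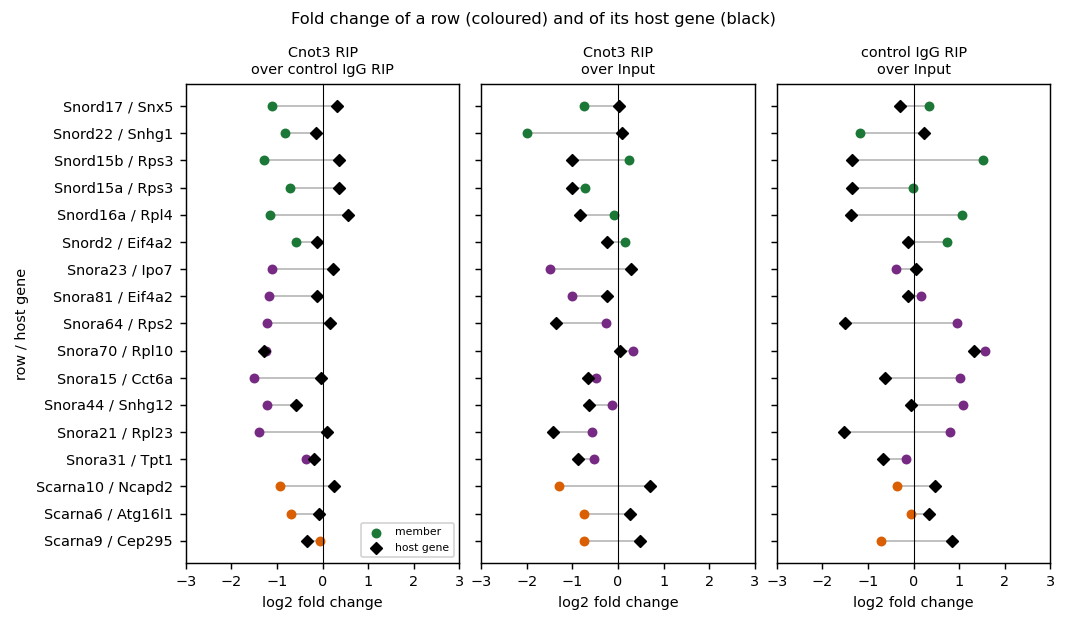
Log2 fold change (x axis) of 17 tested rows (coloured by class) and of their host genes (black diamonds) in the 3 comparisons. For Cnot3 RIP over control RIP 15 of 17 coloured points lie left of their host, and for the comparisons with Input the order of row and host is mixed.

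No tested mRNA of a protein that binds snoRNAs passed the test in any comparison, with limma, edgeR or DESeq2. Of the C/D box proteins 3 were tested, Nop56, Nop58 and Nhp2l1, while the fibrillarin gene Fbl was not among the tested genes. Their log2 fold changes were −0.54, −0.24 and 0.39 in Cnot3 RIP against control RIP, and 0 of the 3 had an unadjusted p under 0.05. Of the H/ACA proteins Dkc1 (dyskerin), Gar1, Nhp2 and Nop10 0 had an unadjusted p under 0.05 in the same comparison, with a median of 0.42. Dkc1 had 6.06 and 10.2 scaled CPM in the Cnot3 RIP libraries, 5.71 and 4.67 in control RIP, and 6.0 and 5.17 in Input, so both Cnot3 RIP libraries were highest, with an adjusted p of 0.354 against control RIP (limma). Of 26 tested assembly, Cajal body and maturation factors 1 was called, in Cnot3 RIP against Input, where 5.86% of all genes were called higher. That was Papd5, which rose with 21.5 and 34.1 scaled CPM in the Cnot3 RIP libraries, 12.8 and 14.4 in control RIP, and 10.9 and 11.8 in Input, and a log2 fold change of 1.23 ± 0.26 (SE; adjusted p = 0.0268, limma). Against control RIP its log2 fold change of 0.98 passed with DESeq2 but not with limma (adjusted p = 0.0989). The list's median against Input was −0.22 in Cnot3 RIP, against 0.06 for all genes.

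Other stable and nuclear RNAs are given for comparison. Of 4 other small RNAs tested, Rpph1 and Rmrp, the RNAs of RNase P and RNase MRP, fell in both immunoprecipitations against Input. Their log2 fold changes were −3.64 and −2.38 in Cnot3 RIP and −3.39 and −1.95 in control RIP. In these comparisons limma called 2 of the 4 lower, where 2.47% and 1.49% of all genes were. Between the immunoprecipitations 0 of the 4 had an unadjusted p under 0.05, against 17.3% of all genes. Rmrp had 48.1 and 42.4 scaled CPM in the Cnot3 RIP libraries, 67.2 and 55.8 in control RIP, and 258 and 218 in Input, so both immunoprecipitations stood far below Input. Of 6 nuclear long noncoding RNAs, limma called 0 in Cnot3 RIP against control RIP. All 6 log2 fold changes were below 0, against 50.3% of all genes, with a median of −1.62. An unadjusted p under 0.05 (limma) was found for 5 of them, against 17.3% of all genes. edgeR called 0 of them and DESeq2 called 3 lower, Airn, Kcnq1ot1 and Neat1, where it called 1.25% of all genes lower. Kcnq1ot1, a nuclear antisense transcript of the imprinted Kcnq1 locus, had 191 and 81.2 scaled CPM in the Cnot3 RIP libraries, 571 and 452 in control RIP, and 79.3 and 28.3 in Input. These nuclear RNAs were thus below the control RIP level in Cnot3 RIP along with the snoRNA rows, but the sets differed against Input. There the 6 nuclear RNAs had medians of 2.24 in control RIP and 0.72 in Cnot3 RIP, and the 23 tested rows 0.19 and −0.55. In control RIP against Input limma called 3 of the 6 higher, where 2.58% of all genes were. The part of nuclear RNA in the difference between the immunoprecipitations was not tested.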

How the data were processed

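Gene-level values of 6 libraries were analysed, 2 per group, with the control IgG RIP group called control RIP. The authors deposited 1 table of CPM per gene symbol. Per the submitters' processing notes, CASAVA 1.8, FastQC, Bowtie2 2.2.5, TopHat2 2.1.0, edgeR and the mm10 genome were used; not given in the sources used here are the read counter, gene annotation, library kit, strand setting and the treatment of reads shared by near-identical snoRNA copies. Columns were matched to samples by name.

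In each library 100% of the CPM gave a whole number of reads, within 0.01 of a read. Scaled CPM are CPM divided by TMM factors from these reads (edgeR 4.0.16). The main test was limma 3.58.1 (R 4.3.3, trended empirical Bayes) on log2(scaled CPM + 0.25), with a mean per group, all 6 libraries and no block (residual df 3, prior df 6.24). The filter, filterByExpr with a minimum of 10 reads (0.538 CPM in 2 or more libraries), kept 13010 of 24421 genes, and p-values were adjusted over these. On the recovered reads, for Cnot3 RIP over control RIP, edgeR's quasi-likelihood test gave 242 higher and 54 lower genes, and DESeq2 1.42.0 gave 573 and 162. The fit was tested on simulated data. Lengths, places, hosts and sequences come from the GENCODE annotation of GRCm38, which holds 118 of the 119 symbols. Floors take in counting error alone, as reads that carry no molecular identifier need not be separate molecules.

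The members and lists were chosen with earlier results of these data known. Values in every library are given for all tested scaRNA rows, the 6 C/D box and 6 H/ACA rows with the highest mean, every called row and the 3 rows with the smallest p in each comparison. Listed genes of the pathway are given by counts and medians, with values for those called and for few others. Alternatives covered the pseudocount, filter, scaling, each left-out replicate, the replicate block, the groups in the fit and count tests.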

Additional observations from a re-analysis of the deposited data

How the results depend on the processing

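The sign of the Cnot3 RIP medians against control RIP was negative under every alternative run, and those against Input were not. With each replicate left out in turn the median of the 23 rows ran between -1.23 and -0.89 against control RIP for Cnot3 RIP, between -1.12 and -0.27 against Input for Cnot3 RIP, and between -0.10 and 0.74 against Input for control RIP. Rows called lower in Cnot3 RIP against control RIP were 2 with DESeq2, which called 1.25% of all genes lower. Rows called lower in Cnot3 RIP against Input were 1 (Snord22) with no filter and with deposited CPM, where 0.553% and 0.0538% of all genes were. Rows called higher in control RIP against Input ran between 0 and 1 with a replicate left out (Snord15b without Input replicate 1), and were 1 (Snord118) with no filter and 6 with deposited CPM. With no filter, which adds rows with few reads, the Cnot3 RIP medians against control RIP were -0.31 over 102 rows, -0.24 for C/D box and -0.41 for H/ACA rows. With deposited CPM the Cnot3 RIP medians against Input were 0.25 over all tested rows, 0.31 for C/D box and 0.19 for H/ACA rows. The control RIP median against Input for C/D box rows was then 1.09. On that scale the median of all genes was 0.30 for Cnot3 RIP against control RIP, 1.02 for Cnot3 RIP against Input and 0.70 for control RIP against Input. The H/ACA median against Input for Cnot3 RIP was 0.22 without Input replicate 1. Low depth limits all of this, since 90 of 119 rows stayed under 10 reads in every library.

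The labels do not say that a replicate number marks a shared animal or day, and with 2 replicates the data could not settle it: deviations of same-numbered libraries correlated at -0.32 between Cnot3 RIP and control RIP, 0.34 between Cnot3 RIP and Input, and -0.33 between control RIP and Input. With the replicate block 0 rows were called against control RIP, and the medians were as without it. In Cnot3 RIP against Input 3 rows were called lower with the block (Snord22, Scarna10 and Snora23), where 1.28% of all genes were. Over all genes the calls in Cnot3 RIP against control RIP were 292 higher and 93 lower, against 200 and 36 without the block. With the control RIP numbers crossed in the block, chosen after seeing the data, 2 rows were lower in Cnot3 RIP against control RIP, where 2.34% of all genes were. In that fit 3 rows were lower in Cnot3 RIP against Input, where 7.09% of all genes were. In control RIP against Input 3 rows were higher and 1 lower, where 8.07% and 6.30% of all genes were.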

Other observations

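Rows too low to test held 998 reads together. Snora68 had the most, with 7 and 10 reads in the Cnot3 RIP libraries, 9 and 8 in control RIP, and 9 and 8 in Input. Snora28 had 9 and 10 reads in the Cnot3 RIP libraries, 4 and 13 in control RIP, and 6 and 1 in Input. Snora43, which had at least 0.5 CPM in 2 columns but was not tested, had 9 and 2 reads in the Cnot3 RIP libraries, 13 and 9 in control RIP, and 7 and 3 in Input.

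Of 12 tested snoRNA host transcripts of the Snhg and Gas5 group, 0 were called in any of the 3 comparisons, with a median log2 fold change of -0.42 in Cnot3 RIP against control RIP. At an unadjusted p under 0.05 there was 1 such transcript in Cnot3 RIP against control RIP (limma), and edgeR and DESeq2 called 0. Gas5, whose introns hold many C/D box snoRNAs, had 5.52 and 2.1 scaled CPM in the Cnot3 RIP libraries, 6.29 and 7.93 in control RIP, and 6.93 and 4.10 in Input.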
